A study of Phanerodontia chrysosporium with 18 samples.

Results

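The G protein and small GTPase signalling genes of Phanerochaete chrysosporium RP-78, a white-rot fungus, were followed on spruce sapwood at 96 h and at 40 h after inoculation. They were taken as the gene models of the deposited table whose curated function or InterPro description held a term such as G protein, Ras GTPase, pheromone or STE3, which gave 99 of 13602 models. Of these, 41 held such a term as whole words. A further 23 matched only because the letters "g protein" run through words such as "binding protein" or "activating protein", but are GTP-binding or GTPase-regulating proteins by name. The other 35 matched by the same letters and have other functions, so the label does not hold for them and they are described last. The terms reached none of the 28 models described simply as Ras, so the small GTPases themselves are given as partners.

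RNA was sequenced from wood sections that the fungus had colonised for 96 h or for 40 h, with 3 libraries at each time. Both groups were the same strain, without added treatment, on thin white spruce (Picea glauca) sections in a mineral agar that held nitrogen and no other carbon source than the wood. Each library came from 20 pooled sections, and its 3 sequencing lanes were averaged, so lanes were not counted as replicates. Values are RPKM, reads per length of the gene model and per reads of the lane, and they are levels in RNA of the whole colony, in which fewer cells of a type and less RNA per cell cannot be told apart.

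Heterotrimeric G proteins carry signals from membrane receptors into the cell. A receptor loads the alpha subunit with GTP, the alpha subunit and the beta-gamma pair then act on separate targets, and regulators of G protein signalling speed the return to the resting state. In basidiomycetes, STE3 receptors read lipid-modified peptide pheromones, and in some species the pheromone and receptor genes help decide which mates are compatible. Small GTPases of the Ras, Arf and Rab families work as similar switches for polar growth and vesicle traffic, turned on by exchange factors and off by GTPase-activating proteins.

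The 96 h libraries were less deep than the 40 h libraries, with relative depths of 0.48, 0.503 and 0.709 against 1, 0.717 and 0.941, as estimated from the lowest values of 41 models. Library 2 at 96 h stood apart from the others of its time, with correlations over gene models of 0.984 and 0.992 to libraries 1 and 3, which correlated at 0.995. For 77 of the 99 members (77.8%) it lay on the side of the 40 h mean, against 65.7% of all tested models. The part of this library in single results was not tested, and values without it are given beside the genes described below where a call changed. No member had a lane without reads, the lanes differed little (a median SD of about 0.03 on the log2 scale), and all 99 members passed the filter of at least 1 RPKM in at least 3 libraries. The phosphatidylethanolamine-binding protein 2913810 passed through its 96 h values alone.

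Across all 11725 tested models, 62.0% passed limma's moderated test (Benjamini-Hochberg adjusted p below 0.05), 26.3% higher and 35.6% lower at 96 h. Of the 99 members, 22 were higher and 35 were lower at 96 h, and 42 did not pass the threshold, shares close to that background. Under trimmed-mean scaling of the libraries the split was 32 higher and 31 lower, and without library 2 of the 96 h group it was 22 and 43. The same settings gave 31.7% higher and 31.9% lower among all tested models under trimmed-mean scaling, and 27.2% and 41.2% without that library. Called members with a change of 2-fold or more numbered 12 higher and 6 lower, against 8.35% and 7.47% of all tested models. The 96 h libraries were fully separate from the 40 h libraries for 68 members, 30 above and 38 below, and such separation held for 69.3% of all tested models. The median log2 fold change of the members was -0.08, as it was for all tested models. Of the 41 whole-word members, 9 were higher and 16 lower, with 4 and 6 of these changed at least 2-fold. Trimmed-mean scaling gave 13 and 15 for them, and leaving out 96 h library 2 gave 8 and 20, beside the shares of all tested models just given for these settings. The counts by role below stand beside the same background of 26.3% higher and 35.6% lower.

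**Figure D1:**
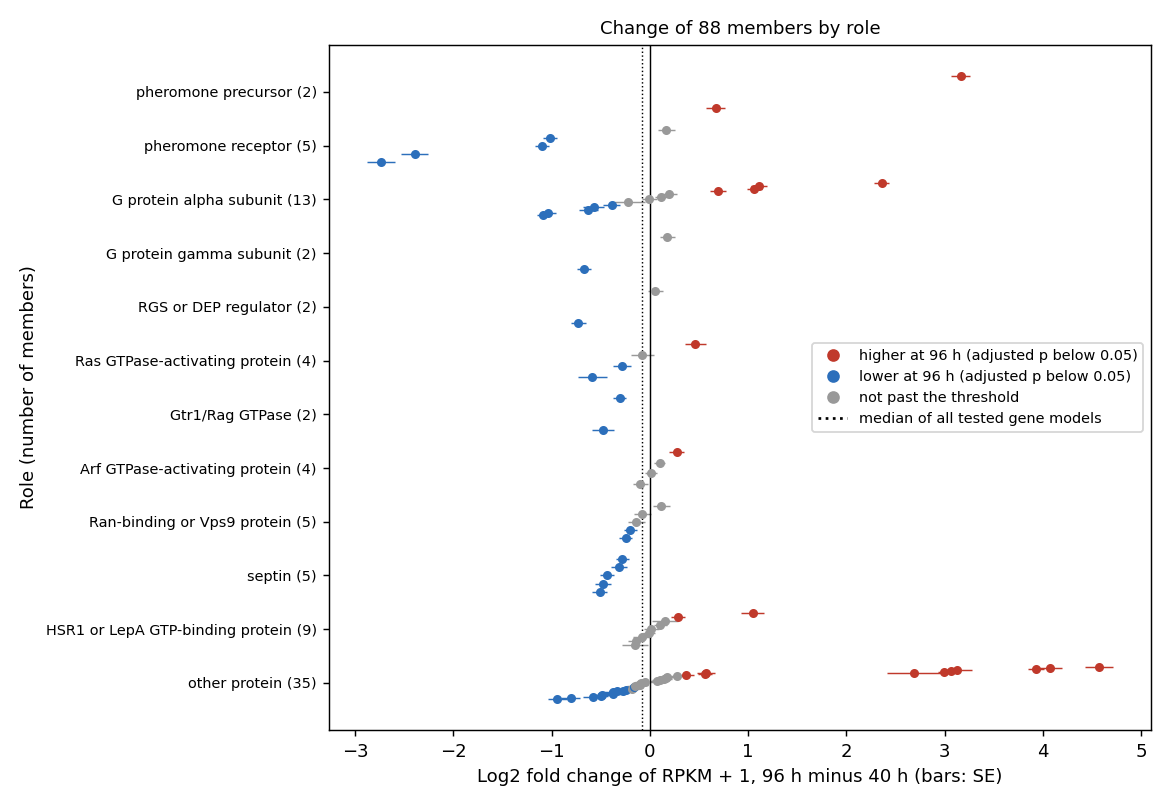
Each point is 1 of 88 members, placed by its log2 fold change of RPKM + 1 at 96 h over 40 h (horizontal axis, bars: SE) in the row of its role. Red points were higher and blue points lower at an adjusted p below 0.05, grey points did not pass, and the dotted line is the median of all tested models at -0.08. Pheromone precursors lie to the right and 4 of 5 pheromone receptors to the left, whereas the Arf GTPase-activating proteins lie near 0.

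The pheromone precursors and most STE3 receptors moved in opposite directions. Both pheromone precursors were higher at 96 h, and 4 of the 5 STE3 receptors were at least 2-fold lower. Model 2119824 is curated as hypothetical, and its match to the fungal mating-type pheromone domain covers residues 184 to 219 of its protein. It had 1480.1, 1343 and 1552 RPKM at 96 h, against 177, 152 and 158 RPKM at 40 h. The 96 h libraries all lay far above the 40 h libraries, by 8.98-fold in the means. The log2 fold change was 3.16 (SE 0.10, adjusted p = 1.80e-07). At 96 h this precursor was above 99.7% of all gene models in level, against 94.1% at 40 h.

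The other precursor, 2977805, with the domain at residues 66 to 100, was much less abundant. It had 12.4, 11.7 and 12.5 RPKM at 96 h, against 6.55, 7.07 and 8.45 RPKM at 40 h. Its libraries did not overlap between the times, and its log2 fold change was 0.67 (SE 0.09, adjusted p = 4.83e-04).

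Among the STE3 receptors, which sit in the cell membrane and bind the pheromone, the steepest decrease was that of 2789322. It had 18.3, 27.7 and 21.6 RPKM at 96 h, against 171, 143 and 149 RPKM at 40 h. It was 6.85-fold lower in the means (log2 fold change -2.74, SE 0.14, adjusted p = 2.34e-06). Receptor 2910162, curated as a pheromone gene but with an STE3 match over residues 30 to 136, had 31.0, 45.5 and 35.0 RPKM at 96 h, against 212, 199 and 182 RPKM at 40 h. It was 5.31-fold lower (log2 fold change -2.39, SE 0.14, adjusted p = 3.51e-06). In both receptors library 2 was the highest of the 96 h libraries, and the groups were still far apart.

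The most abundant receptor at either time was 3728, with 185, 201 and 197 RPKM at 96 h, against 417, 388 and 378 RPKM at 40 h. It fell to 194 ± 7.91 RPKM at 96 h, against 394 ± 19.8 RPKM at 40 h (SD, n = 3 each; log2 fold change -1.02, SE 0.07, adjusted p = 1.35e-05). The least abundant, 2789386, had 4.001, 4.35 and 3.83 RPKM at 96 h, against 9.69, 9.80 and 9.89 RPKM at 40 h (log2 fold change -1.09, SE 0.07, adjusted p = 6.58e-06). Neither gene's groups overlapped.

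Receptor 2911053, whose pair of STE3 matches lies within residues 1 to 114, did not pass the test. It had 24.7, 24.5 and 24.1 RPKM at 96 h, against 23.2, 19.2 and 22.7 RPKM at 40 h (log2 fold change 0.17, SE 0.08, adjusted p = 0.115). Its 96 h libraries all lay above the 40 h ones, and under trimmed-mean scaling it passed as higher (log2 fold change 0.24, adjusted p = 0.0477).

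Summed over the 5 receptors, the level was 283 ± 19.5 RPKM at 96 h and 778 ± 48.6 RPKM at 40 h (SD, n = 3 each). Their makeup shifted too: 3728 supplied 68.9% of the summed receptor RPKM at 96 h and 50.8% at 40 h, and 2911053 supplied 8.67% and 2.79%. Model 2910162 supplied 13.1% at 96 h and 25.4% at 40 h, and 2789322 supplied 7.91% and 19.8%. In order of level, 3728 was followed at 96 h by 2910162, then 2911053 and 2789322, whose libraries overlapped, then 2789386. At 40 h, 2789322 stood above 2911053 and no neighbours overlapped.

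The receptors also differ in how much of the STE3 domain their models carry. The match covers residues 13 to 300 in 3728, 6 to 289 in 2789322 and 10 to 315 in 2789386, whereas 2910162 and 2911053 carry a short stretch. The table gives a signal peptide probability for 4 of the 5 receptors, 0.626 for 3728, 0.967 for 2911053, 0.906 for 2789322 and 0.908 for 2789386, and for neither precursor. The sources used here do not say how reads shared by similar receptor genes were assigned, which leaves single receptors uncertain.

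**Figure D2:**
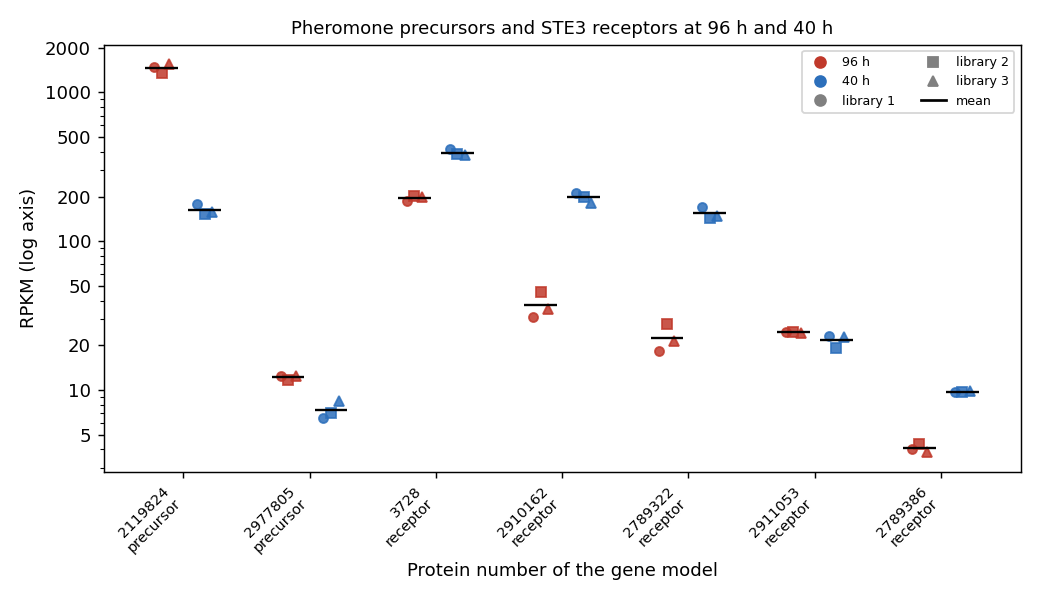
Levels of both pheromone precursors and the 5 STE3 receptors in RPKM on a log axis, with a marker for each library and a black line for the mean, 96 h (red) left of 40 h (blue) for each gene. The precursors are higher at 96 h, 4 receptors are lower, and receptor 2911053 lies near 24 RPKM at 96 h and 22 RPKM at 40 h.

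The 13 alpha subunit genes did not move together. At 96 h, 4 were higher, 5 were lower and 4 did not pass. Under both scalings of the libraries, 6 were higher and 5 lower. The summed level was 1212 ± 60.9 RPKM at 96 h and 1290 ± 17.95 RPKM at 40 h (SD, n = 3 each), a small difference next to the changes of single genes.

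The largest change was that of 2980048, an alpha subunit model with 199.99, 169 and 184 RPKM at 96 h, against 34.2, 34.5 and 36.5 RPKM at 40 h. Its 96 h libraries lay 5.26-fold above the 40 h libraries in the means (log2 fold change 2.36, SE 0.08, adjusted p = 2.58e-07). It supplied 15.3% of the alpha subunit RPKM at 96 h and 2.72% at 40 h.

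Alpha subunits 3032246 and 2980436 also rose at least 2-fold, and 1612942 rose less. Model 3032246 had 39.9, 40.2 and 46.2 RPKM at 96 h, against 19.4, 17.9 and 19.6 RPKM at 40 h (log2 fold change 1.11, SE 0.08, adjusted p = 1.22e-05). Model 2980436 had 31.1, 34.2 and 29.7 RPKM at 96 h, against 14.4, 14.8 and 14.6 RPKM at 40 h (1.06, SE 0.07, adjusted p = 8.53e-06). In neither did the groups overlap. Model 1612942, already abundant at 40 h, had 127, 123 and 145 RPKM at 96 h, against 81.7, 83.4 and 77.1 RPKM at 40 h (0.70, SE 0.08, adjusted p = 1.70e-04).

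The most abundant alpha subunit, 2980479, fell to 399.6, 484 and 459.8 RPKM at 96 h, against 709, 687 and 672 RPKM at 40 h (log2 fold change -0.63, SE 0.09, adjusted p = 6.88e-04). It supplied 36.9% of the alpha subunit RPKM at 96 h and 53.5% at 40 h, and remained the first in level at both times. Model 2917409 had 66.2, 83.1 and 72.3 RPKM at 96 h, against 97.1, 95.6 and 97.1 RPKM at 40 h (-0.39, SE 0.09, adjusted p = 0.00592). Both had all 96 h libraries below all 40 h libraries.

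A pair of alpha subunits fell at least 2-fold. Model 3026113 had 39.3, 45.7 and 41.7 RPKM at 96 h, against 82.0, 91.1 and 90.3 RPKM at 40 h (log2 fold change -1.04, SE 0.08, adjusted p = 1.72e-05). Model 2904978 had 5.84, 6.09 and 6.22 RPKM at 96 h, against 13.5, 14.3 and 14.0 RPKM at 40 h (-1.08, SE 0.07, adjusted p = 5.02e-06). The least abundant of the family, 2988185, was lower as well, with 3.64 ± 0.561 RPKM at 96 h and 5.88 ± 0.438 RPKM at 40 h (SD, n = 3 each; -0.57, adjusted p = 0.00188).

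The remaining 4 did not pass. Model 3041934 averaged 179 ± 13.6 RPKM at 96 h and 179 ± 7.14 RPKM at 40 h (SD, n = 3 each; adjusted p = 0.959). Model 2979780 had 14.3, 21.8 and 14.6 RPKM at 96 h, against 16.8, 22.0 and 19.9 RPKM at 40 h (adjusted p = 0.285). Library 2 was the one 96 h library within the 40 h range, and without it the model passed as lower (log2 fold change -0.41, adjusted p = 0.00959). Models 2988551 and 3005374 had all 96 h libraries above the 40 h ones, with adjusted p = 0.138 and 0.0684. Both passed as higher under either scaling, and 3005374 also without library 3 of the 40 h group (log2 fold change 0.26, adjusted p = 0.0287).

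The alpha subunit models were put into 2 kinds by where their domain starts, a division made after their values were seen. In 3 models the domain match starts within the first 15 residues and runs for most of a canonical alpha subunit: residues 6 to 352 in 2917409, 8 to 353 in 2980479 and 13 to 345 in 3041934. In the other 10 it starts later, at residue 30 or beyond, and these are not all alike. The match is long in 3026113, 2979780 and 1612942, at 443, 473 and 461 residues. In the rest it starts at residue 235 or later and covers 202 to 252 residues. Of the 3, none rose, 2 fell and 1 did not pass, and their summed level was 701 ± 65.1 RPKM at 96 h and 965 ± 23.5 RPKM at 40 h (SD, n = 3 each). Of the other 10, 4 rose, 3 fell and 3 did not pass, and their sum was 511 ± 13.8 RPKM at 96 h and 324 ± 9.82 RPKM at 40 h. Those 4 include all alpha subunits that rose, and the 10 also hold both alpha subunits that fell at least 2-fold. Single genes weighed heavily in both sums. Among the 3, 2980479 averaged 448 RPKM at 96 h and 689 RPKM at 40 h. Among the 10, 2980048 averaged 184 RPKM at 96 h and 35.1 RPKM at 40 h. No test of a difference between the kinds was made.

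**Figure D3:**
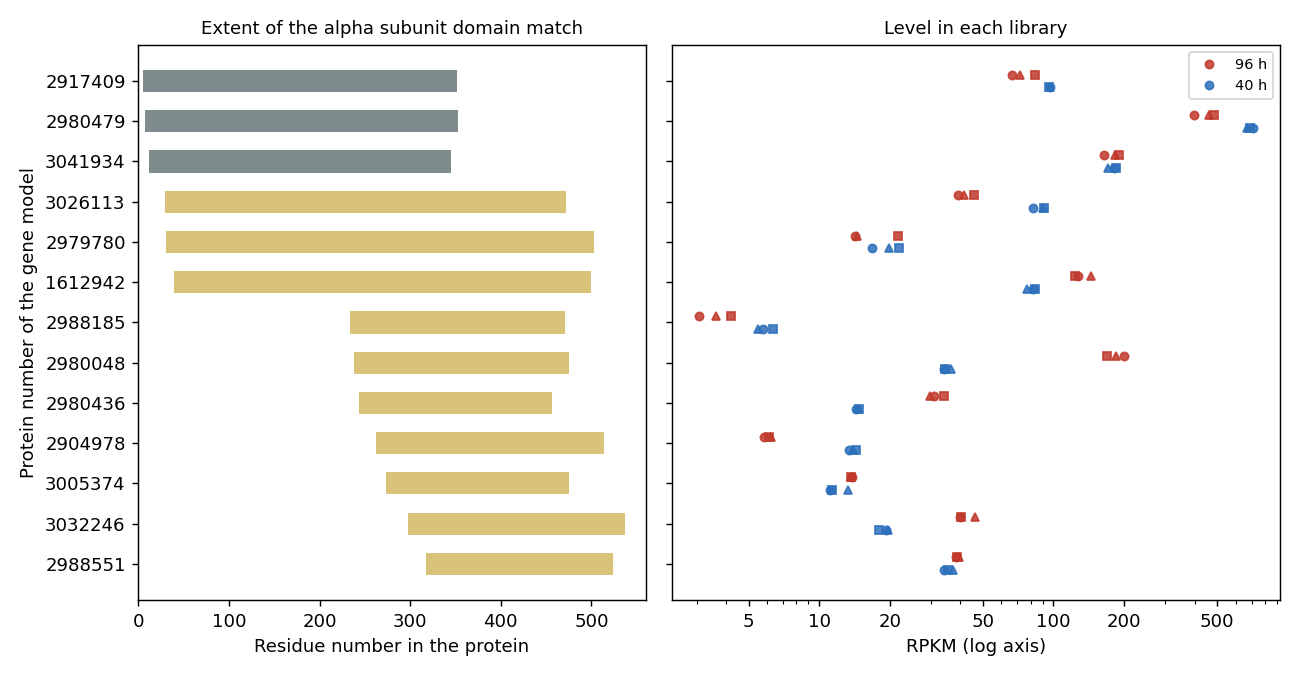
Left, the residues covered by the alpha subunit domain in each of the 13 models, in grey for the 3 that start within the first 15 residues and in yellow for the other 10. Right, the RPKM of each library on a log axis, 96 h (red) above 40 h (blue), with circles, squares and triangles for libraries 1, 2 and 3. The grey models include the most abundant gene, 2980479, and the widest gap between times is that of 2980048.

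In order of level at 96 h, 2980479 stood alone, 2980048 and 3041934 overlapped, and 3026113 and 3032246 overlapped lower down. At 40 h, 2980048 stood beside 2988551 near 35 RPKM, with overlapping libraries, far below 3041934. So 2980048 joined the most abundant alpha subunits at 96 h.

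The gamma subunits, which tether the beta-gamma pair to the membrane, differed from each other. Model 2973277 fell to 208, 223 and 219 RPKM at 96 h, against 344, 362 and 329 RPKM at 40 h (log2 fold change -0.67, SE 0.07, adjusted p = 1.19e-04). Model 2896304 had 193, 216 and 206 RPKM at 96 h, against 178, 192 and 175 RPKM at 40 h. Its libraries did not overlap by a narrow margin, and its log2 fold change of 0.17 did not pass (SE 0.08, adjusted p = 0.0793). It passed as higher under both scalings and without library 1 of the 96 h group (log2 fold change 0.22, adjusted p = 0.0454). The gamma subunits were thus at 216.6 and 205 RPKM at 96 h, and at 345 and 182 RPKM at 40 h.

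The curated beta subunit, 3010634, is no member because its WD40 repeat was a reason to leave a model out. It had 357, 271 and 312 RPKM at 96 h, against 329, 333 and 306 RPKM at 40 h, with overlapping groups (adjusted p = 0.709). By their means, the beta subunit and both gamma subunits lay between the alpha subunits 3041934 and 2980479 in level at both times.

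Of the regulators, the model with an RGS domain, the part that speeds GTP hydrolysis by alpha subunits, was lower at 96 h. This was 2924146, with 63.5, 74.8 and 71.6 RPKM at 96 h, against 118, 119 and 112 RPKM at 40 h (log2 fold change -0.73, SE 0.08, adjusted p = 1.14e-04). Its groups were well apart. Model 2913557 carries a DEP domain, found in several signalling proteins, and averaged 20.6 ± 1.79 RPKM at 96 h and 19.7 ± 0.681 RPKM at 40 h (SD, n = 3 each; adjusted p = 0.567).

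GTPase-activating proteins of the Ras family, which turn Ras off, were 1 higher, 2 lower and 1 not passing among 4. Model 3029974 had 29.2, 39.5 and 33.4 RPKM at 96 h, against 23.7, 24.9 and 24.2 RPKM at 40 h (log2 fold change 0.46, adjusted p = 0.00632). Model 2897441 had 26.6, 42.0 and 34.8 RPKM at 96 h, against 53.5, 51.1 and 49.9 RPKM at 40 h (-0.59, adjusted p = 0.00911). Both spread more widely at 96 h than at 40 h, and neither overlapped between the times.

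The most abundant of them, 2988864, had 68.1, 86.8 and 78.5 RPKM at 96 h, against 98.1, 91.7 and 94.0 RPKM at 40 h (-0.28, adjusted p = 0.0305). This call depended on the libraries and on the fit, with an adjusted p of 0.0668 under trimmed-mean scaling and 0.0519 with the replicate block. Leaving out 96 h library 1 or 3 gave an adjusted p of 0.0632 or 0.0733, and leaving out 40 h library 1, 2 or 3 gave 0.0965, 0.0626 or 0.0748.

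Gtr1/Rag GTPases, which in yeast report amino acid supply to the TOR kinase, were both lower. Model 2974132 had 23.7, 30.3 and 22.3 RPKM at 96 h, against 33.7, 37.1 and 35.7 RPKM at 40 h (log2 fold change -0.48, adjusted p = 0.00722). Model 3009800 had 13.05, 14.6 and 13.2 RPKM at 96 h, against 16.9, 17.3 and 16.98 RPKM at 40 h (-0.31, adjusted p = 0.00554). In both, library 2 was the 96 h library nearest to the 40 h values.

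Septins, GTP-binding proteins that assemble into filaments at hyphal tips and septa, were lower for all 5 models, with log2 fold changes between -0.51 and -0.28. Their summed level was 889 ± 52.7 RPKM at 96 h and 1167 ± 38.9 RPKM at 40 h (SD, n = 3 each). The most abundant, 2970171, had 235, 267 and 247 RPKM at 96 h, against 357, 356 and 332 RPKM at 40 h (log2 fold change -0.48, adjusted p = 0.00114).

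Septin 2960854 had 201, 224 and 214 RPKM at 96 h, against 288, 299.5 and 279 RPKM at 40 h (-0.44, adjusted p = 0.00127). The scarcest, 3028018, had 29.2, 31.8 and 33.3 RPKM at 96 h, against 48.0, 43.8 and 43.8 RPKM at 40 h (-0.51, adjusted p = 6.07e-04). Its septin match is also short, over residues 529 to 587. No septin's groups overlapped, and 5 of 5 were also called lower under both scalings and without library 2 of the 96 h group.

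**Figure D4:**
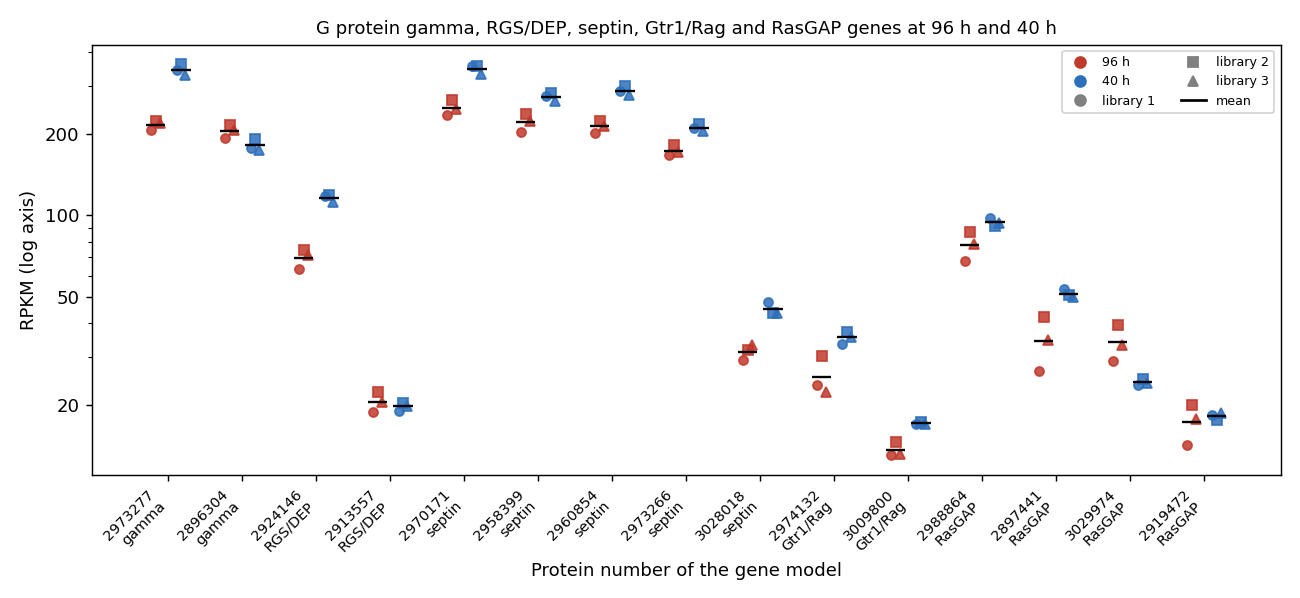
RPKM on a log axis of the gamma subunits, the RGS and DEP regulators, the septins, the Gtr1/Rag GTPases and the Ras GTPase-activating proteins, with a marker for each library and a black line for the mean, 96 h (red) left of 40 h (blue). The 5 septins, both Gtr1/Rag models, gamma subunit 2973277 and RGS model 2924146 are lower at 96 h, and the Ras regulator 3029974 is higher.

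Among the other GTP-binding proteins, the HSR1-related family, which holds ribosome-assembly and organelle GTPases, had 1 of 8 models changed. Without library 2 of the 96 h group it was 4 of 8, since 2877112 was then also higher (log2 fold change 0.31, adjusted p = 0.0127) and 2899373 and 2958268 were lower (-0.17 and -0.21, adjusted p = 0.0420 and 0.0305). The model changed with all libraries was 3009731, with 36.0, 39.7 and 36.7 RPKM at 96 h, against 17.7, 20.8 and 14.8 RPKM at 40 h (log2 fold change 1.05, SE 0.12, adjusted p = 1.25e-04). The most abundant of the family, 2966516, had 37.6 ± 1.81 RPKM at 96 h and 37.3 ± 2.60 RPKM at 40 h (SD, n = 3 each; adjusted p = 0.886). At 40 h 3009731 was thus far below 2966516, and at 96 h the libraries of the pair overlapped.

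The LepA model, 9833, related to a bacterial translation factor, had 29.3, 29.6 and 31.1 RPKM at 96 h, against 22.7, 26.6 and 24.1 RPKM at 40 h (0.29, adjusted p = 0.0119). Leaving out 96 h library 3 gave an adjusted p of 0.0530.

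Of 4 Arf GTPase-activating proteins, which act in vesicle budding, 1654028 was higher, with 64.4, 53.9 and 60.1 RPKM at 96 h, against 50.1, 49.3 and 47.4 RPKM at 40 h (log2 fold change 0.27, adjusted p = 0.0181). It lost its call when 96 h library 3 was left out (adjusted p = 0.0635), and when 40 h library 2 or 3 was (0.0517 and 0.0696). The most abundant, 2975873, averaged 61.9 ± 1.09 RPKM at 96 h and 57.8 ± 1.81 RPKM at 40 h (SD, n = 3 each; adjusted p = 0.193), and it passed as higher under both scalings.

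The vacuolar sorting protein 3024737 carries a VPS9 domain, known for activating Rab GTPases of the endosome. It had 16.4, 15.9 and 15.4 RPKM at 96 h, against 19.3, 18.2 and 19.6 RPKM at 40 h (log2 fold change -0.25, adjusted p = 0.0122). Without library 3 of either time its adjusted p was 0.0570 (96 h) and 0.0579 (40 h).

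Ran-binding protein 3026692, of the family that serves nuclear transport, had 21.9, 21.6 and 21.2 RPKM at 96 h, against 23.8, 26.6 and 24.3 RPKM at 40 h (-0.20, adjusted p = 0.0345). It did not pass under either scaling, without library 3 of the 96 h group (0.115) or without library 2 or 3 of the 40 h group (0.127 and 0.0747). With the replicate block its adjusted p was 0.0532. Ran-binding protein 3009633 passed as lower only when library 2 of the 96 h group was left out (log2 fold change -0.22, adjusted p = 0.0167). The most abundant Ran-binding protein, 2898043, had 384 ± 24.1 RPKM at 96 h and 405 ± 26.3 RPKM at 40 h (SD, n = 3 each; adjusted p = 0.453).

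Partners of these proteins were found by other terms in the same annotation, and the members that these terms also matched were left out of the counts. For the exchange factor list these were the Arf GTPase-activating and Ran-binding members described above. Of 17 tested exchange factors, GDP dissociation inhibitors and Arf regulators, 2 were higher and 8 lower at 96 h. Over all tested models, 26.3% were higher and 35.6% lower, and the other partner counts stand beside the same shares. The RCC1-like model 2897668, of the family that holds the Ran exchange factor, had 9.11, 7.07 and 8.20 RPKM at 96 h, against 3.66, 3.72 and 3.51 RPKM at 40 h (log2 fold change 0.97, adjusted p = 6.01e-05). The other RCC1-like model, 2897841, was more abundant and lower at 96 h. It averaged 37.0 RPKM at 96 h and 57.6 RPKM at 40 h (log2 fold change -0.62, adjusted p = 9.68e-05). Model 2913224, with a Dbl homology domain, had 42.5, 54.3 and 48.5 RPKM at 96 h, against 89.6, 88.3 and 88.1 RPKM at 40 h (-0.87, adjusted p = 9.79e-05). The groups were separate in all of these models.

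The cAMP and phospholipase C branch is a common output of alpha subunits. Its terms found 6 models, of which none was higher and 3 were lower, but 1 that did not pass, 2973316, is described as a plant-type cyclic phosphodiesterase of other substrates. The adenylate cyclase-associated protein 1166145 had 52.6, 56.5 and 51.4 RPKM at 96 h, against 74.9, 81.0 and 78.9 RPKM at 40 h (log2 fold change -0.54, adjusted p = 2.56e-04). For the MAP kinase cascade and PAK kinases, which lie below pheromone receptors in yeast, the terms found 2 models outside the members, and neither passed. The mating-type terms found only the pheromone precursors already given.

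The small GTPases outside the rule were read from lists added after the annotation was seen. Of the 28 models described as Ras, 6 were higher, 12 were lower and 10 did not pass, with 3 and 1 changed at least 2-fold. Over all tested models, 26.3% were higher and 35.6% lower, and 8.35% and 7.47% were called with a change of at least 2-fold. The Ras models' summed level is given next. Their summed level was 4448 ± 108 RPKM at 96 h and 4518 ± 148 RPKM at 40 h (SD, n = 3 each). The largest rise was that of 2898395, with 352, 197 and 304 RPKM at 96 h, against 91.1, 93.8 and 88.3 RPKM at 40 h (log2 fold change 1.59, SE 0.19, adjusted p = 1.99e-04). Its library 2 was well below the other 96 h libraries and still above all 40 h libraries. The largest fall was that of 3022592, with 33.7, 36.7 and 32.8 RPKM at 96 h, against 69.7, 72.8 and 67.7 RPKM at 40 h (-1.01, SE 0.07, adjusted p = 9.57e-06).

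Of 7 Arf/Sar GTPases, 3 were higher and 2 lower, and of 5 Ras exchange factors, none was higher and 2 were lower. Of 11 Rab GTPase-activating (TBC) proteins, 2 were higher and 3 lower. These counts too stand beside the shares of all tested models just given. The TBC model 2935878 was the one changed at least 2-fold, with 17.2, 24.0 and 21.5 RPKM at 96 h, against 56.2, 54.0 and 56.7 RPKM at 40 h (log2 fold change -1.38, adjusted p = 2.44e-05).

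The 35 members with other functions had 10 higher (28.6%), 12 lower (34.3%) and 13 not passing. These shares were near the 26.3% higher and 35.6% lower of all tested models. Of the 10, 7 rose at least 2-fold, and 8.35% of all tested models were called higher with such a change. The 10 include 2913810, which passed the filter through its 96 h values alone. Without library 2 of the 96 h group, the phosphatidylethanolamine-binding protein 2985276 also passed as higher (log2 fold change 0.39, adjusted p = 0.00311) and the F-actin capping protein 2986392 as lower (-0.21, adjusted p = 0.0441). The largest rises were in enzymes with nucleotide cofactors by name, matched inside "NAD(P)-binding protein" or "domain-containing protein". The FAD/NAD-P-binding model 3028396 had 64.8, 42.2 and 57.1 RPKM at 96 h, against 1.29, 1.38 and 1.27 RPKM at 40 h (log2 fold change 4.57, adjusted p = 2.07e-07). The short-chain dehydrogenases 3002996 and 2927014 had log2 fold changes of 4.07 and 3.93 (adjusted p = 1.74e-07 and 3.41e-08). They had 106 ± 17.1 and 118 ± 4.32 RPKM at 96 h, and 5.31 ± 0.373 and 6.85 ± 0.692 RPKM at 40 h (SD, n = 3 each).

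Among the falls of this group, the phosphatidylethanolamine-binding protein 2891335 had a log2 fold change of -0.94 (adjusted p = 9.74e-05). The oxysterol-binding protein 2951248, of a family that moves sterols between membranes, had -0.81 (adjusted p = 1.68e-04). The acyl-CoA-binding protein 2975263 had -0.58 (adjusted p = 0.00191). A second acyl-CoA-binding protein, 2978284, had the highest mean of the group and was higher, with 313 ± 10.5 RPKM at 96 h and 212 ± 9.75 RPKM at 40 h (SD, n = 3 each; 0.56, adjusted p = 2.71e-04). The libraries of the times were separate in all of these.

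The authors' deposited table gives a ratio of 96 h to 40 h and a p-value for each model. How the ratio was formed is not stated, and it differs slightly from the ratio of the linear means used here. For 2910162 it is 0.186, against 0.188 from the linear means. Its ratio had the same direction as the fit above for all 99 members. Both come from the same libraries, so this is no independent support. By the p-value of the authors' deposited table, 87 members were below 0.05, and 57 of these were also called here. The share of all models below 0.05 by that p-value was not counted.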

How the data were processed

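Poly-A RNA of 6 libraries, 3 at 96 h and 3 at 40 h, was sequenced with single reads of 100 bp in 3 lanes each. The submitters' processing notes name CASAVA 1.8.2. Which aligner, counter, genome build and gene models were used, and whether strand was read, is not given in the sources here, so overlapping or antisense models cannot be told apart. The authors deposited RPKM for 18 lane columns, with 0.002 where a lane had no reads. Beside them, per the file headers, the deposited table also holds a ratio of 96 h to 40 h, a p-value, a fraction (the probability of a signal peptide) and domain positions. Depth in reads is unknown, so counting intervals could not be formed. The barcode in the titles was taken as the library.

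Each library is the linear mean of its 3 lanes. RPKM as deposited was transformed to log2(RPKM + 1), which understates the change of low genes. Models reaching 1 RPKM in 3 or more libraries were fitted with limma 3.58.1 in R 4.3.3 (variance trend, no block, Benjamini-Hochberg adjustment over all 11725 models, called below 0.05, two-sided). The fit was tried on simulated data with independent noise and few changed models. That setting is unlike these libraries, so it does not check the calls given here. The labels give 3 separate samples per time, so the p-values reflect the spread among these 6 libraries, which may be technical. Members and lists were chosen with earlier results of these data known. The named genes are all pheromone, receptor, heterotrimeric and RGS or DEP members. For every other role they are up to 3 largest separated rises and falls and the highest mean, and for the partner lists the largest called rise and fall. Alternatives were the pseudocount, the filter, 2 scalings, no variance trend, the replicate block, the treatment of lanes, each library left out and the threshold. Sequences were not analysed here, and 11 members of 1 further role enter the overall counts but are not reported here.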

Additional observations from a re-analysis of the deposited data

How the results depend on the processing

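Without read totals, low values cannot be given a counting error, and single paralogs may share reads. The count of members called stayed within 1.5 times the reported value under every alternative, and no named gene that was called changed sign. Over all named genes and alternatives, 756 values kept their call, 24 lost it, 12 gained it and 8 uncalled values near 0 moved. Deviations of libraries with the same barcode number correlated at 0.136, 0.133 and -0.102, and the replicate block used these numbers. The highest value between the times was 0.218, for 96 h library 3 and 40 h library 1, whose deposited sample names carry the same number. The other pairs that share a number in their sample names did not stand out. The value was -0.097 for 96 h library 1 and 40 h library 2, and 0.076 for 96 h library 2 and 40 h library 3. Deviations among 3 libraries cannot show whether the libraries were paired, and a block by sample name was not fitted. With the replicate block, 22 members were higher and 32 lower, 1 Ras GTPase-activating protein was lower (2988864 had an adjusted p of 0.0519) and 1 Ran-binding or Vps9 protein was lower. Log2 fold changes ranged over the alternatives from 3.11 to 3.24 for the precursor 2119824 and from 2.24 to 2.44 for the alpha subunit 2980048. The range was 3.22 to 5.26 for 3028396, 3.42 to 4.28 for 3002996 and 3.38 to 4.10 for 2927014.

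Small role counts moved by 1 or more, and the cause was not tested. With median scaling, 30 members were higher and 33 lower, 2 Arf GTPase-activating proteins and 1 gamma subunit were higher, and 1 Ran-binding or Vps9 protein was lower. Trimmed-mean scaling gave the same counts for these 3 roles, with 1 pheromone receptor higher and 1 Ras GTPase-activating protein lower. At an adjusted p below 0.01, 0 Arf GTPase-activating proteins and 1 HSR1 or LepA protein were higher. At the same threshold, 7 members of other functions, 1 Ras GTPase-activating protein, 0 Ran-binding or Vps9 proteins and 5 exchange factors, inhibitors and Arf regulators were lower. Leaving out each library in turn gave 18 to 26 higher and 28 to 43 lower members. It gave 0 to 1 Arf GTPase-activating proteins, 0 to 1 gamma subunits, 1 to 3 HSR1 or LepA proteins and 0 to 1 Ran-binding or Vps9 proteins higher. It gave 0 to 2 HSR1 or LepA proteins, 0 to 3 Ran-binding or Vps9 proteins, 1 to 2 Ras GTPase-activating proteins and 8 to 13 members of other functions lower.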

Other observations

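All 5 oxysterol-binding proteins, a family of lipid carriers between membranes, were lower at 96 h, beside 35.6% of all tested models. The 5 were chosen as a group after their values were seen. Their log2 fold changes were -0.81 for 2951248, -0.49 for 2919749, -0.37 for 2984166, -0.27 for 2985407 and -0.24 for 6350. The most abundant, 2984166, had 151, 174 and 149 RPKM at 96 h, against 195, 210.2 and 209 RPKM at 40 h. The call of 6350 (adjusted p = 0.0475) held in 8 of 17 settings and that of 2985407 in 11 of 17. The 5 phosphatidylethanolamine-binding proteins differed from each other: 2959275 had 285, 170.1 and 269 RPKM at 96 h, against 48.9, 38.7 and 24.0 RPKM at 40 h (log2 fold change 2.69, adjusted p = 8.48e-05), whereas 2891335 was lower.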
